A study of Mus musculus with 51 samples.

Results

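H3K4me3 of mouse male germ cells carrying the genotype Spo11/Spo11 was set against that of germ cells able to form SPO11 breaks. The members were fixed by genotype and antibody and comprise 4 of the 51 samples of the series: 2 Spo11/Spo11 libraries, 1 library labelled Spo11/+ and 1 labelled Hells wt. All 4 came from germ cells of males aged 12 to 14 days post-partum, and their chromatin was cut with MNase and built into libraries with the KAPA hyper kit. The series studies how the remodeller HELLS and the methyltransferase PRDM9 open chromatin at recombination sites, and 3 Hells CKO libraries in the same table were left out here. The labels give neither the Spo11 allele nor the strain background of these libraries, nor whether their donors were different animals. Each break-competent genotype is represented by 1 library, so the pair differ in genotype and library at once, and these cannot be told apart.

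SPO11 is the topoisomerase-like enzyme that makes the DNA double-strand breaks from which meiotic recombination starts. In mice PRDM9 binds DNA at hotspots and trimethylates H3K4 on the nucleosomes beside its site, and the breaks are then made there. Mouse spermatocytes without SPO11 make no such breaks and arrest in meiotic prophase, so a comparison without SPO11 reads hotspot H3K4me3 without SPO11 breaks. Whether the Spo11/Spo11 cells used here lacked all such breaks was not tested. DMC1, which coats the single strands of a processed break, marks the sites where breaks formed.

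The deposited table counts reads in 78960 regions of mm10. A region was called a promoter where it lay within 1000 bp of the start of a protein-coding transcript (16598 regions), a hotspot where it otherwise overlapped a DMC1 peak of 6-week-old Hells het testes (12572), and a CKO-only DMC1 site where it overlapped a DMC1 peak of Hells CKO testes alone (4839). HELLS regions overlapped none of these but a HELLS peak of testes labelled B6-Prdm9CAST-KI (106), a strain other than that of the 4 libraries' labels. The remaining regions numbered 44845. The classes rest on other assays than the 4 libraries compared. Some of the hotspots shared a sequence pattern. Among gapped 8-letter patterns, GNAGCANC, searched on both strands (GNTGCTNC on the other), was chosen as the most over-represented in the central 200 bases of these same hotspots: it was present in 29.4% of 10378 hotspots at least 700 bases long, against 9.36% in equal lengths of their flanks, values that restate that choice. Most hotspots lacked it. The same pattern lay in the central 200 bases of 28.6% of all hotspots, 14.6% of CKO-only DMC1 sites, 19.3% of promoters and 18.4% of all regions. Its presence did not separate hotspots by their H3K4me3: the median log2 fold change of Spo11/Spo11 against Spo11/+ was −0.29 with the pattern and −0.27 without it, and against Hells wt 0.52 and 0.49.

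The central 200 bases of 4 regions described below are given from RefSeq GRCm38.p6, plus strand, with matches to the pattern in capitals. They are a hotspot nearly without H3K4me3 in both Spo11/Spo11 libraries, a hotspot that was lower in the mutant than in either break-competent library, a hotspot that was higher than in Hells wt, and a region outside hotspots that was lower in the mutant.
chr2:172762601-172762800: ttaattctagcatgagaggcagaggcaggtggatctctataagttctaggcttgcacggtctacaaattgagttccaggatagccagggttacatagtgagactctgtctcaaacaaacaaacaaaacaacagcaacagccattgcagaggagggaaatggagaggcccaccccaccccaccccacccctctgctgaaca
chr3:96322220-96322419: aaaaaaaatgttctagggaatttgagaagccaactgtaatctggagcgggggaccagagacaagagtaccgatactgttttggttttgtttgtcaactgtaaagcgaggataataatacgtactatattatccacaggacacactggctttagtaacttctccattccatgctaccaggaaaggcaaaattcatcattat
chr12:113734101-113734300: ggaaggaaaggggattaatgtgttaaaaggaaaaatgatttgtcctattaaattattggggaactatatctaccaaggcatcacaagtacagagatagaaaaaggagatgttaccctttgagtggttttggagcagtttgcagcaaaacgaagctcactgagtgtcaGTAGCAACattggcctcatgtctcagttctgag
chr5:132639033-132639232: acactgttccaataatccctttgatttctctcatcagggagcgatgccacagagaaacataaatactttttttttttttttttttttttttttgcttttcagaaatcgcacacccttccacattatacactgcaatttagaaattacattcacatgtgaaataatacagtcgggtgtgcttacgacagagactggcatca

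The targeted gene was read first. The Spo11 promoter (chr2:172979125-172980787, transcript start included) held 582 and 676 reads in Spo11/Spo11, 513 in the library labelled Spo11/+ and 246 in Hells wt. As CPM, counts scaled to the TMM-adjusted library total, this was 17.7 and 16.5 in Spo11/Spo11, 17.5 in Spo11/+ and 18.0 in Hells wt, so the promoter values overlapped. Inside the gene the libraries parted. A region over an exon (chr2:172986526-172987667) had 313 and 445 reads in Spo11/Spo11, against 4 in the library labelled Spo11/+ and 18 in Hells wt. A second exonic region (chr2:172982542-172984285) had 243 and 369 reads in Spo11/Spo11, against 9 in the library labelled Spo11/+ and 17 in Hells wt. Both mutant libraries therefore carried intragenic H3K4me3 at a level that neither break-competent library reached, and the library labelled Spo11/+ was not intermediate. Against it the log2 fold changes were 6.18 ± 0.34 (SE; edgeR adjusted p = 6.62e-14) and 4.73 ± 0.32 (adjusted p = 8.22e-12), and against Hells wt 2.95 ± 0.27 and 2.72 ± 0.30 (adjusted p = 1.50e-09 and 4.90e-08). Since the altered part of Spo11 is not described, which alleles the library labelled Spo11/+ carries was not tested.

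The counts in regions came to 32991761 and 42007820 in Spo11/Spo11, 29341467 in Spo11/+ and 13321006 in Hells wt, so the Hells wt values carry the largest counting error. A further property set the Hells wt library apart: 9 regions at the start of the assembled sequence of chromosome 9 took 5.52% of its counts, against 0.636 and 0.601% in Spo11/Spo11 and 0.717% in Spo11/+. Promoter marks of the germ line were present in all libraries: the summed CPM of 7 preleptotene to zygotene markers was 360.2 and 379.9 in Spo11/Spo11, 385 in Spo11/+ and 272 in Hells wt, and that of 6 pachytene markers 240.1 and 255 in Spo11/Spo11, 243 in Spo11/+ and 219 in Hells wt. Those of 7 spermatogonial markers were 267 and 283 in Spo11/Spo11, 254 in Spo11/+ and 265 in Hells wt. The zygotene-stage sum was thus lowest in the Hells wt library. Sertoli cell promoters were marked as well, with sums over 6 markers of 468 and 494 in Spo11/Spo11, 408 in Spo11/+ and 496 in Hells wt. Their part in the differences below was not tested. None of the 3 blood markers and 1 of the 4 spermatid markers had a promoter region. In bulk chromatin a smaller share of a cell type and less mark per cell cannot be told apart.

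At hotspots the mutant lay between the 2 break-competent libraries. The median hotspot carried 3.67 and 3.54 CPM in the Spo11/Spo11 libraries, 4.40 CPM in Spo11/+ and 2.56 CPM in Hells wt. The mutant pair averaged 3.61 ± 0.092 CPM and the break-competent pair 3.48 ± 1.30 CPM (SD, n = 2 each; two-sided exact permutation p = 1, where 2 against 2 libraries cannot go below 0.333). Of 12572 hotspots, 9944 (79.1%) were higher in Spo11/+ than in either mutant library, 9815 (78.1%) were lower in Hells wt than in either, and 8121 (64.6%) showed both. Over all 78957 regions, Spo11/+ was higher than either mutant library at 28761, and Hells wt was lower than either at 33244. The order of the hotspot medians held on chromosome X. There 558 hotspots had medians of 2.41 and 2.46 CPM in Spo11/Spo11, 3.15 CPM in Spo11/+ and 1.61 CPM in Hells wt. It held also for the 1334 hotspots whose DMC1 peak was found in Hells CKO testes too, with 11.6 and 12.1 CPM in Spo11/Spo11, 13.4 CPM in Spo11/+ and 6.65 CPM in Hells wt. The log2 difference between the 2 break-competent libraries, median 0.77 in favour of Spo11/+, was larger than either library's distance from the mutant.

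**Figure D1:**
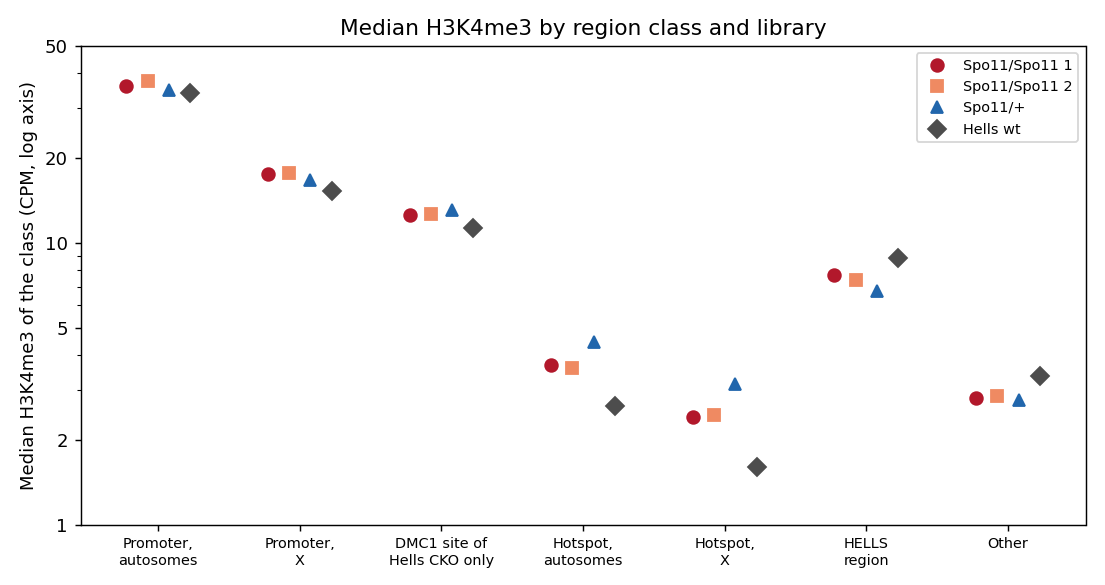
Median H3K4me3 of each region class (CPM, log axis) in the 4 libraries, one symbol per library. At autosomal hotspots the Spo11/Spo11 libraries (3.70 and 3.59 CPM) sit between Spo11/+ (4.47 CPM) and Hells wt (2.63 CPM), while at autosomal promoters all 4 lie between 34.1 and 37.4 CPM.

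With the break-competent pair fitted as 1 group, no region passed the test. In edgeR's quasi-likelihood test 0 of 78781 regions passed an adjusted p of 0.05 (0%), and 744 had an unadjusted p under 0.05 (0.944%), of which 49 were hotspots. Under DESeq2 there were 5 higher and 110 lower calls. With the library-number prefix of the labels as a block, which pairs each mutant library with 1 break-competent library, edgeR called 11 higher and 291 lower, and with the break-competent libraries as separate groups in the fit 832 and 618. The groups did not overlap at 9238 regions that were higher in Spo11/Spo11 (11.7%) and 9940 that were lower (12.6%). Among hotspots the matching counts were 460 (3.66%) and 974 (7.75%), both below the share over all regions. The median log2 fold change of hotspots was 0.02, beside −0.01 over all regions tested, 0.04 at CKO-only DMC1 sites, 0.09 at promoters, −0.03 at HELLS regions and −0.07 elsewhere. The sign of the hotspot median depended on the scaling, at −0.055 with TMM from promoters and 0.07 with TMM from the remaining regions. The 95% interval lay within 1 log2 unit either side of 0 for 63.0% of hotspots and 94.7% of promoters, so a 2-fold difference was outside the interval at most of them but not at all. Which break-competent library was used decided the count: 9156 regions were called higher and 5410 lower without Spo11/+, and 16 higher and 61 lower without Hells wt. Without Spo11/Spo11 replicate 1 the counts were 6 and 153, and without replicate 2 they were 4 and 32.

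Against the library labelled Spo11/+ alone, hotspots were slightly lower in the mutant. Their log2 fold changes had a median of −0.28, with quartiles of −0.41 and −0.14, beside 0.00 over all regions and 0.06 at promoters. Of 78957 regions, 18 were called higher (0.0228%) and 78 lower (0.0988%), and among them were 17 hotspots called lower (0.135% of hotspots) and none called higher. At an unadjusted p under 0.05 stood 8130 regions (10.3%), 3536 of them hotspots. For 82.7% of hotspots the 95% interval lay within 1 log2 unit of 0. The 2 mutant libraries differed from each other at hotspots by a median of −0.05. When the 3 Hells CKO libraries were added to estimate the spread, no region was called in either direction (159 before adjustment). DESeq2 gave 6 higher and 1 lower. In that 7-library fit, 2 regions were called higher without Spo11/Spo11 replicate 1 and none without replicate 2. Scaled on promoters alone the counts were 48 higher and 686 lower, and scaled on regions outside promoters and DMC1 sites 21 and 250.

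Against the Hells wt library the hotspots were higher in the mutant. Their log2 fold changes had a median of 0.50, with quartiles of 0.17 and 0.79, beside −0.01 over all regions, and 4031 hotspots were called higher (32.1%) and 56 lower (0.445%). Over all regions 9321 were called higher (11.8%) and 5272 lower (6.68%), and 24777 had an unadjusted p under 0.05 (31.4%). The hotspots with a DMC1 peak also in Hells CKO testes had a median of 0.81, with 949 of 1334 called higher (71.1%). The CKO-only DMC1 sites had a median of 0.15, with 626 of 4839 called higher (12.9%), near the share over all regions. Scaled on promoters alone the counts were 6510 higher and 9359 lower, and scaled on regions outside promoters and DMC1 sites 18263 and 2943. DESeq2 gave 2020 higher and 91 lower. With the Hells CKO libraries in the fit no region was called (4093 before adjustment), 1 higher and 161 lower were called when Spo11/Spo11 replicate 1 was also left out, and none higher and 46 lower when replicate 2 was. Because the 2 comparisons share the mutant libraries, their values are given side by side and not correlated.

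**Figure D2:**
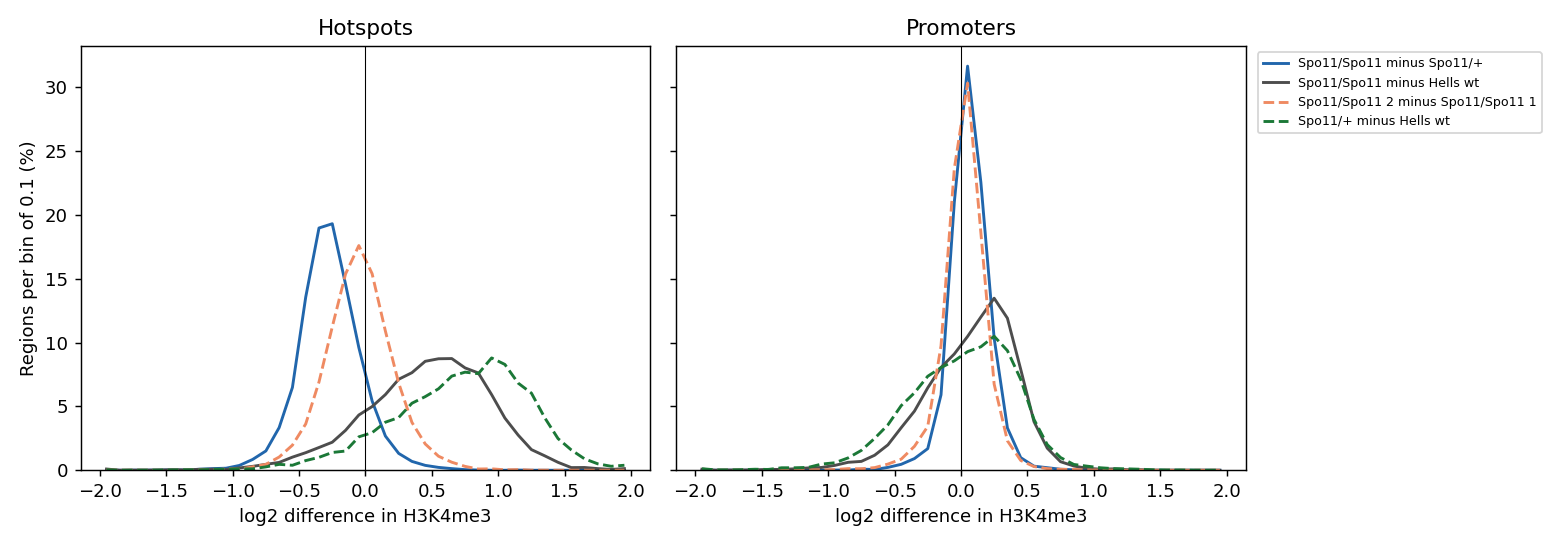
Distribution of the log2 difference in H3K4me3 over hotspots (left) and promoters (right), as the percentage of regions per bin of 0.1; solid lines show Spo11/Spo11 minus each break-competent library, dashed lines the difference between the 2 mutant libraries and between the 2 break-competent ones. At hotspots the mutant lies below Spo11/+ (median −0.28) and above Hells wt (median 0.50).

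Single hotspots varied around these medians, and some with the lowest p lay above both break-competent libraries in the mutant. The intergenic hotspot chr8:68242003-68244198, the one with the lowest p among those higher than in Hells wt, had 840 and 1059 reads in Spo11/Spo11, 655 in Spo11/+ and 84 in Hells wt, which is 25.5 and 25.9 CPM in Spo11/Spo11, 22.3 CPM in Spo11/+ and 6.14 CPM in Hells wt. Only the Hells wt library was low there (log2 fold change 2.07 ± 0.16, SE; edgeR adjusted p = 1.94e-11), and against Spo11/+ the value was 0.20 ± 0.11 (adjusted p = 0.543). The hotspot chr12:113732603-113735798, printed above, had 38.2 and 40.7 CPM in Spo11/Spo11, 33.2 in Spo11/+ and 14.5 in Hells wt. A hotspot in an intron of Ttk, which encodes a spindle checkpoint kinase (chr9:83858603-83861798), had 35.9 and 40.5 CPM in Spo11/Spo11, 30.8 in Spo11/+ and 13.7 in Hells wt. In the hotspot with the largest total of reads, chr19:12004479-12013908, the mutant had 142 and 157 CPM, Spo11/+ 159 CPM and Hells wt 109 CPM. There the mutant differed from Spo11/+ by −0.08 ± 0.09 (adjusted p = 0.842).

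Beside 78.1% of all hotspots, both mutant libraries lay above Hells wt at 13 of the 17 hotspots called lower against Spo11/+. One of these in an intron of Prkg1, which encodes cGMP-dependent kinase (chr19:31568803-31569998), had 4.13 and 4.74 CPM in Spo11/Spo11, 7.91 CPM in Spo11/+ and 2.34 CPM in Hells wt. The mutant was lower than Spo11/+ (log2 fold change −0.83 ± 0.17, SE; edgeR adjusted p = 0.0314) and higher than Hells wt (0.93 ± 0.27, adjusted p = 0.0134). Of the 17, 3 were called lower against both libraries, and chr2:171407203-171408398 was below Hells wt without passing that test, at 1.214 and 1.197 CPM in Spo11/Spo11, 3.34 CPM in Spo11/+ and 1.90 CPM in Hells wt (log2 fold change against Hells wt −0.65, edgeR adjusted p = 0.227). The hotspot chr2:172762203-172763198, within 1 Mb of Spo11 and printed above, had 19 and 5 reads in Spo11/Spo11, against 127 in Spo11/+ and 38 in Hells wt. It was nearly empty in both mutant libraries, at 0.577 and 0.122 CPM, against 4.33 CPM in Spo11/+ and 2.78 CPM in Hells wt. Its unadjusted p of 0.000746 was the lowest of all hotspots in the joint edgeR comparison, and it did not pass adjustment. The hotspot chr3:96321588-96323051, 28351 bp from the nearest coding start, that of Fcgr1, had 6.04 and 5.03 CPM in Spo11/Spo11, against 10.5 in Spo11/+ and 21.3 in Hells wt. The third, chr13:110602603-110603512, had 0.759 and 0.904 CPM in Spo11/Spo11, against 2.32 in Spo11/+ and 18.0 in Hells wt. In the deposited 11-state chromatin segmentation this region lay in state 11, and chr3:96321588-96323051 lay in state 2. The other hotspots called lower lay in state 7 (15 of the 17), as did 10085 of all 12572 hotspots.

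The calls against Spo11/+ gathered around Spo11. Within 1 Mb of the gene 17 of 107 regions were called (15.9%), 11 higher and 6 lower. From 1 to 5 Mb 3 of 361 were called (0.831%), on the rest of chromosome 2 beyond 20 Mb 4 of 4469 (0.0895%), and on the other chromosomes 71 of 73109 (0.0971%). So 11 of the 18 regions called higher lay within 1 Mb of Spo11. Of these 11, 5 were also called higher against Hells wt and 6 were not, while all 6 regions called lower within 1 Mb were also called lower against Hells wt. The comparisons share the mutant libraries, so these overlaps are partly built in. Besides the exonic regions of Spo11, the regions called higher included an intronic region of Pmepa1, which encodes a restrainer of TGF-beta signalling (chr2:173266064-173267595). It had 302 and 384 reads in Spo11/Spo11, against 42 in Spo11/+ and 33 in Hells wt. An intergenic region, chr2:173415296-173416313, had 131 and 146 reads in Spo11/Spo11, against 3 in Spo11/+ and 5 in Hells wt. Another, chr2:173516126-173517319, had 145 and 178 reads in Spo11/Spo11, against 13 in Spo11/+ and 15 in Hells wt. These 3 and the 2 exonic regions are the 5 called higher in both comparisons. Against Spo11/+ their log2 fold changes were 2.69 ± 0.21, 5.14 ± 0.47 and 3.29 ± 0.33 (SE; edgeR adjusted p = 6.62e-10, 2.19e-08 and 1.23e-07). On the lower side, the promoter of Cass4, an adaptor protein of the CAS family (chr2:172392926-172394431), had 3.25 and 3.0 CPM in Spo11/Spo11, against 6.14 in Spo11/+ and 6.80 in Hells wt, and farther out chr2:171560571-171561455 had 5 and 2 reads in Spo11/Spo11, against 62 in Spo11/+ and 36 in Hells wt. Of the 7 regions that DESeq2 called, 6 lay within 5 Mb of Spo11.

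**Figure D3:**
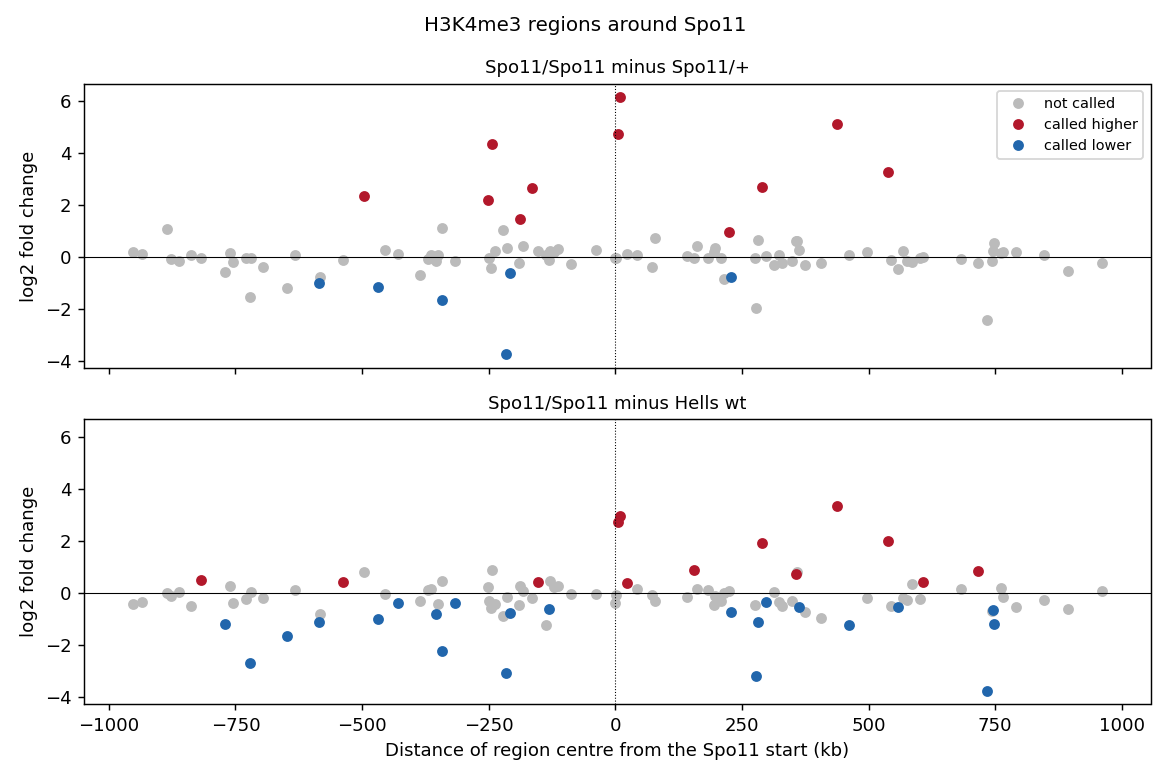
Log2 fold change of each H3K4me3 region by the distance of its centre from the Spo11 start (kb), for Spo11/Spo11 minus Spo11/+ (top) and minus Hells wt (bottom); red points were called higher in the mutant, blue ones lower, grey ones not called. Within 1 Mb, 11 regions are called higher and 6 lower against Spo11/+.

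Away from chromosome 2 the region with the lowest p among those called higher was at the 3′ end of Pgk1, the X-linked gene of a glycolytic enzyme. Its UTR region (chrX:106203523-106204415) had 121 and 234 reads in Spo11/Spo11, against 5 in Spo11/+ and 11 in Hells wt. The Pgk1 promoter (chrX:106185620-106188606) was higher as well, with 44.0 and 47.8 CPM in Spo11/Spo11, against 31.5 in Spo11/+ and 21.1 in Hells wt. Both were called in both comparisons, the UTR region with log2 fold changes of 4.76 ± 0.44 and 2.56 ± 0.40 (adjusted p = 2.19e-08 and 2.37e-05) and the promoter with 0.55 ± 0.11 and 1.12 ± 0.12 (adjusted p = 0.0201 and 7.18e-08). The altered part of Spo11 is not described, so whether the higher Pgk1 counts came from the X-linked gene itself was not tested. The remaining promoters called higher against Spo11/+ are taken from all chromosomes, chromosome 2 included. They were those of Src (a tyrosine kinase), Myo7a (an unconventional myosin), Nfix (a transcription factor) and Vdr (the vitamin D receptor). Their log2 fold changes ran from 0.52 to 0.76. None of these 4 was called against Hells wt, where the values ran from −0.17 to 0.06. At the Src promoter the mutant had 18.7 and 22.1 CPM, Spo11/+ 12.1 CPM and Hells wt 23.0 CPM.

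The 61 regions outside hotspots that were called lower than in Spo11/+ had a median length of 781 bp, against 1365 bp over all regions, and 60 of them were also called lower against Hells wt. Low values in the mutant libraries entered the choice of these regions, and both comparisons use those libraries, so that overlap is partly built in. Hells wt lay above both mutant libraries at all 61, and at 34259 of all 78957 regions. The median counts of the 61 were 19 and 7 in Spo11/Spo11, against 56 in Spo11/+ and 84 in Hells wt. In Hells wt they were thus not weak, with a median of 6.14 CPM beside 4.61 CPM over all regions, while in Spo11/+ the values were 1.91 and 4.81 CPM. Of the 78 regions called lower, 27 (34.6%) lay in state 11 of the deposited 11-state chromatin segmentation, whose states the sources used here do not name, against 1.91% of all regions tested. They held much repeat sequence: soft-masked bases made up a median of 51.4% of the 27 regions, against 23.9% of all regions in state 11 and 15.9% of all regions. The mutant libraries also differed from each other there, since CPM was more than 2-fold higher in replicate 1 than in replicate 2 in 20 of the 27 (74.1%), against 9.17% of state 11 regions. The intergenic region chr5:132638707-132639558, printed above, had 363 and 131 reads in Spo11/Spo11, against 940 in Spo11/+ and 1531 in Hells wt. A region in an intron of Gulo, the gene of the last enzyme of vitamin C synthesis (chr14:66007140-66007919), had 260 and 82 reads in Spo11/Spo11, against 570 in Spo11/+ and 983 in Hells wt. In H3K9ac, the same 2 regions had 80.0 and 42.3 CPM in the Spo11/Spo11 library, and 53.0 to 631 and 28.2 to 344 CPM over the 3 C57BL/6J libraries. A stronger region, chr13:23497390-23501588, with Btn2a2 as the nearest coding gene, had 20.2 and 19.9 CPM in Spo11/Spo11, against 33.3 in Spo11/+ and 51.5 in Hells wt (log2 fold changes −0.73 ± 0.11 and −1.36 ± 0.11, adjusted p = 0.000266 and 4.71e-11).

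**Figure D4:**
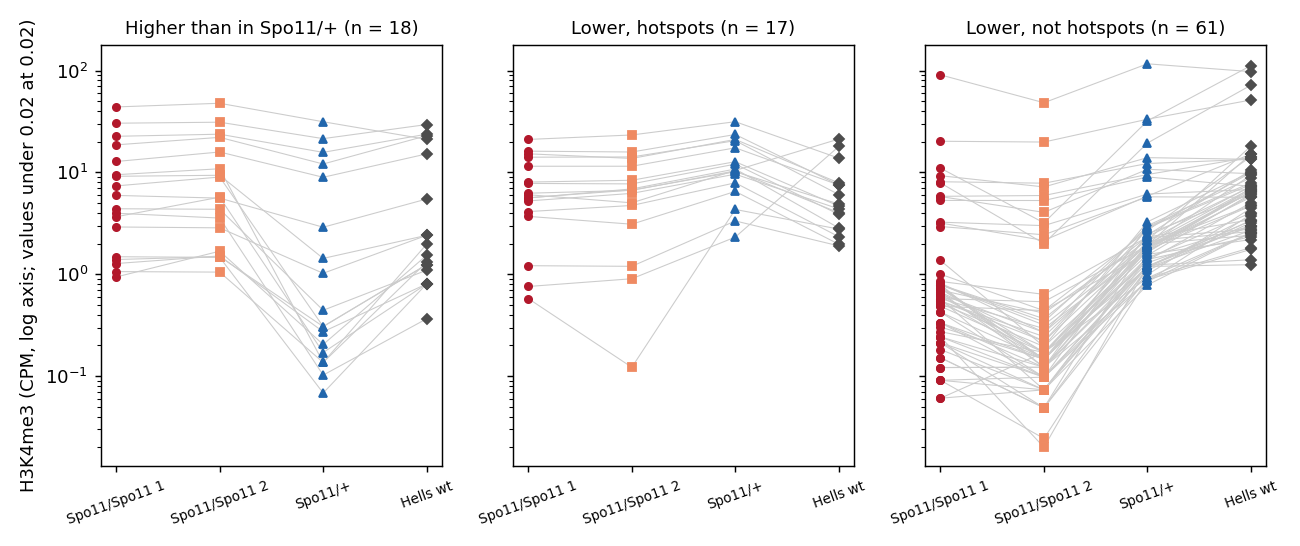
H3K4me3 (CPM, log axis) in the 4 libraries at the 18 regions called higher and the 78 called lower in Spo11/Spo11 against Spo11/+, with the lower ones split into 17 hotspots and 61 others; each grey line joins 1 region. Hells wt lies below both mutant libraries at 13 of the 17 hotspots, beside 78.1% of all hotspots, and above both at all 61 others. Low values in these mutant libraries entered the choice of the regions called lower.

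By class median, promoters were closer between libraries than hotspots were. The median promoter had 34.7 and 36.0 CPM in Spo11/Spo11, 33.4 CPM in Spo11/+ and 32.8 CPM in Hells wt. On chromosome X the 690 promoters had 17.6 and 17.7 CPM in Spo11/Spo11, 16.7 CPM in Spo11/+ and 15.2 CPM in Hells wt. The median log2 fold change was 0.06 against Spo11/+, with 5 promoters called higher and 1 lower, and 0.12 against Hells wt, with 4025 higher (24.2%) and 1122 lower (6.76%). The X promoters had 0.04 against Spo11/+ and 0.26 against Hells wt. The promoter median against Hells wt ran from 0.01 with scaling on promoters to 0.30 with scaling on the remaining regions, so single promoters are best read beside the class median.

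Promoters of 219 of 259 listed genes had a region, and they are described by role. In DNA break machinery 13 of 16 genes had one, with a median log2 fold change of −0.04 against Spo11/+, where none was called, and 0.40 against Hells wt, where 8 were called higher and none lower. The counts against Hells wt that follow stand beside 24.2% of all promoters called higher and 6.76% called lower. The break machinery list also holds genes of factors that mark or open hotspots, Prdm9 and Hells among them. Its log2 fold changes against Hells wt were positive at 11 of the 13 promoters. They were small at Spo11 (−0.07), Mei4 (0.18), Mei1 (−0.18) and Rec114 (0.24). Prdm9 itself had 78.2 and 82.6 CPM in Spo11/Spo11, 84.3 CPM in Spo11/+ and 57.2 CPM in Hells wt. The Hells promoter had 73.7 and 80.7 CPM in Spo11/Spo11, 72.3 CPM in Spo11/+ and 56.5 CPM in Hells wt. At Hormad1, which encodes a protein of the chromosome axis, the values were 30.0 and 34.3 CPM in Spo11/Spo11, 33.8 CPM in Spo11/+ and 18.9 CPM in Hells wt. In each of these 3 the mutant was close to Spo11/+ and above Hells wt (0.49 ± 0.11, 0.45 ± 0.11 and 0.77 ± 0.13; adjusted p = 0.00111, 0.00292 and 7.35e-05).

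Break repair and strand invasion showed the same order. Of 32 genes 27 had a region, and none was called in the joint comparison. The median log2 fold change there was 0.16, beside 0.09 for all promoters (quartiles −0.02 and 0.17). All 27 were positive in it, where most promoters were positive too. Taken singly, all 27 were positive against Hells wt and 12 of the 27 against Spo11/+. Against Hells wt 17 of the 27 were called higher, beside 24.2% of all promoters, and none lower, and against Spo11/+ none was called (median −0.02). Dmc1, the meiotic recombinase, had 52.4 and 55.6 CPM in Spo11/Spo11, 51.7 CPM in Spo11/+ and 38.5 CPM in Hells wt. The promoter of Meiob, whose product binds single-stranded DNA, had 52.9 and 51.6 CPM in Spo11/Spo11, 49.8 CPM in Spo11/+ and 42.8 CPM in Hells wt. Among synaptonemal complex and meiotic cohesin genes 16 of 18 had a region, with 7 called higher against Hells wt and none against Spo11/+. The transverse filament gene Sycp1 had 42.4 and 44.4 CPM in Spo11/Spo11, 48.1 CPM in Spo11/+ and 31.9 CPM in Hells wt, and the axial element gene Sycp3 had 65.6 and 66.5 CPM in Spo11/Spo11, 73.8 CPM in Spo11/+ and 50.3 CPM in Hells wt. Genes of meiotic entry gave 7 of 13 called higher against Hells wt and none against Spo11/+. Stra8, the retinoic acid target that starts meiosis, had 36.9 and 37.9 CPM in Spo11/Spo11, 36.7 CPM in Spo11/+ and 31.2 CPM in Hells wt.

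Promoters of DNA damage signalling, which acts downstream of breaks, did not pass the test against Spo11/+ at any of 28 genes (median 0.02, from −0.24 to 0.21). Against Hells wt 14 of the 28 were called higher, beside 24.2% of all promoters. The 24 pachytene and early spermatid promoters had medians of 0.01 against Spo11/+ and 0.11 against Hells wt, with 6 called higher and 1 lower in the second comparison, near the share over all promoters. Ccna1, the meiotic cyclin, had 16.4 and 16.4 CPM in Spo11/Spo11, 16.3 CPM in Spo11/+ and 19.4 CPM in Hells wt. Piwil1, which binds pachytene piRNAs, had 13.9 and 13.7 CPM in Spo11/Spo11, 12.5 CPM in Spo11/+ and 12.4 CPM in Hells wt. The X-linked germline list that follows includes Pgk1, the glycolytic gene that also stands in the housekeeping list. Of 17 X-linked germline promoters 1, Pgk1, was called higher against Spo11/+ and 11 against Hells wt. The 18 promoters of H3K4 methylation and reading genes included none called against Spo11/+ (median 0.07) and 7 called higher against Hells wt.

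Genes of other cell types and housekeeping genes were read beside the same shares. The 15 Sertoli promoters had a median of 0.25 against Spo11/+, none called, and 0.03 against Hells wt, with 3 called higher and 1 lower, near the share over all promoters. Rhox8, an X-linked homeobox gene of Sertoli cells, had 13.1 and 16.9 CPM in Spo11/Spo11, 11.1 CPM in Spo11/+ and 9.06 CPM in Hells wt. The 21 spermatogonial promoters had medians of 0.10 against Spo11/+ and 0.08 against Hells wt, with 1 promoter, that of Sohlh2, called higher against Hells wt. Only 4 Leydig promoters had a region, with 2 called lower against Hells wt, those of Insl3, a Leydig hormone, and Lhcgr, the luteinising hormone receptor. The 13 housekeeping promoters, Pgk1 included, had medians of 0.03 against Spo11/+ and 0.42 against Hells wt, with 8 called higher against Hells wt. Calls against that library were thus not limited to germline genes.

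**Figure D5:**
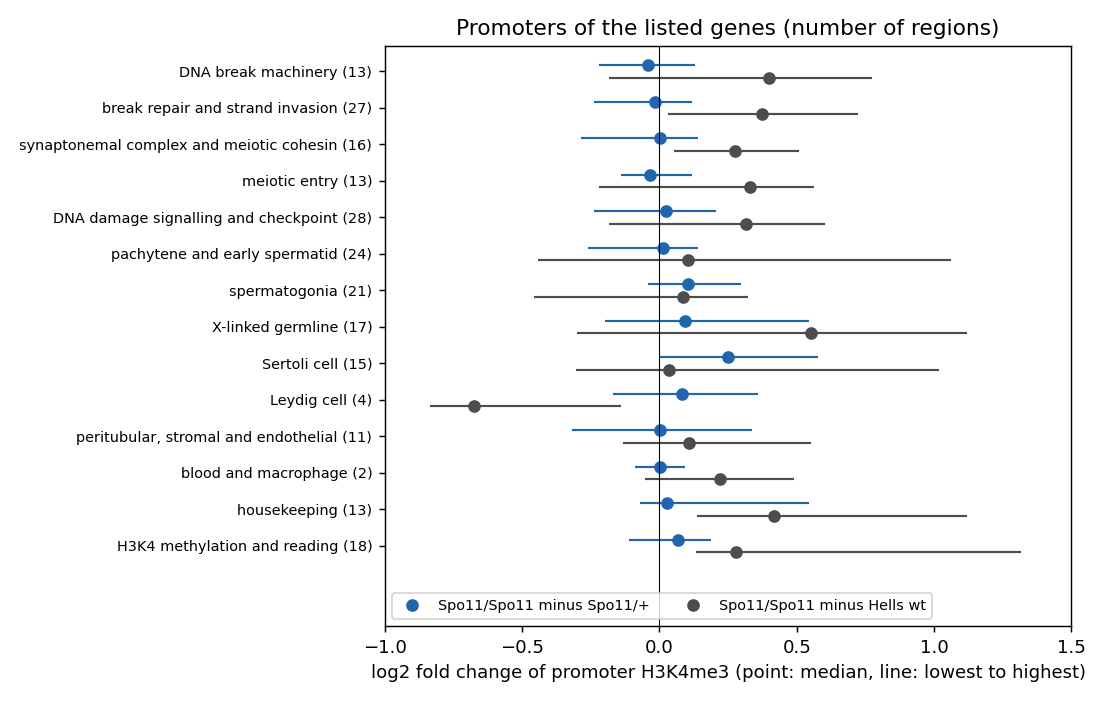
Log2 fold change of promoter H3K4me3 for the 14 gene lists, Spo11/Spo11 minus Spo11/+ in blue and minus Hells wt in grey; points are medians, lines run from the lowest to the highest promoter, and the number of regions stands in brackets. For the DNA break machinery the medians are −0.04 against Spo11/+ and 0.40 against Hells wt.

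In the labels Spo11/Spo11 replicate 1 and Spo11/+ share a library-number prefix, and Spo11/Spo11 replicate 2 and Hells wt share another, so each mutant library has 1 break-competent partner and the pairs share no library. Within the first pair the hotspot median of the log2 difference was −0.24, and within the second it was 0.46. The 2 differences had the same sign at 36.5% of 78781 regions and at 22.6% of hotspots. Their Spearman correlation with GC content was 0.44 over regions in the first pair and −0.40 in the second, a description over regions that share libraries and depth. Hotspots were also split by GC content, into groups with median GC of 36.6, 41.1, 44.6 and 49.2%. In that order the median log2 fold change against Spo11/+ was −0.33, −0.30, −0.26 and −0.22. The medians against Hells wt were 0.65, 0.58, 0.49 and 0.30. Both differences were thus smallest at the highest GC, and neither changed sign. With the prefix as a block the joint hotspot median was 0.083, beside 0.02 without it. How far base composition or the prefix caused the hotspot differences was not tested.

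H3K9ac, another mark of active chromatin, was measured in 1 other Spo11/Spo11 library and in 3 libraries labelled C57BL/6J. The fit held 6 libraries, 2 of B6-Prdm9CAST-KI among them for the spread, and the lone Spo11/Spo11 library is assumed to vary like the other groups. Library totals were 13195275 counts in Spo11/Spo11 and 30233934, 15058790 and 29242297 in C57BL/6J. Of 91909 regions 0 passed edgeR's test (0%), and 3616 had an unadjusted p under 0.05 (3.93%). Without C57BL/6J replicate 2 it called 21202 higher and 11639 lower, so that library decided the count. The regions inside Spo11 were higher in Spo11/Spo11 by value in H3K9ac too, without passing the test. The first exonic region (chr2:172986526-172987667) had 16.1 H3K9ac CPM in Spo11/Spo11, against 0.194, 2.08 and 0.652 in C57BL/6J. The second (chr2:172982542-172984285) had 10.9 CPM in Spo11/Spo11, against 1.81, 3.46 and 2.25 in C57BL/6J. The Pgk1 UTR region had 4.82 CPM in Spo11/Spo11, against 0.161, 0.252 and 0.130 in C57BL/6J. At the hotspot chr2:172762203-172763198 the values were 0.764 CPM in Spo11/Spo11, against 1.06, 5.04 and 1.53 in C57BL/6J. The share of all H3K9ac regions that were lower or higher was not counted. The counts that follow also rest on 1 Spo11/Spo11 library, so no agreement between the marks is read from them. Over the 70 regions called lower in H3K4me3 that an H3K9ac region overlapped, 29 were also lower in H3K9ac, with a median log2 fold change of 0.10 beside 0.01 over all H3K9ac regions. Over the 11 regions called higher in H3K4me3 that an H3K9ac region overlapped, 7 were also higher in H3K9ac, with a median of 0.52.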

How the data were processed

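MNase-fragmented chromatin of mouse germ cells was immunoprecipitated for H3K4me3, per the labels. The authors' deposited table holds raw read counts per region; per the submitters' processing notes CASAVA, BWA 0.7.15, Bowtie 0.12.9, MACS 1.4.2 and mm10 were used, with no role given, and how reads were filtered or regions called is not given in the sources used here. 2 count columns that matched no label were not used. The deposited DMC1 and HELLS peak lists and the chromatin segmentation gave positions and state numbers only, per the file headers and labels. File starts were taken as 0-based.

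Counts were fitted over the whole table with edgeR 4.0.16 (TMM, filterByExpr, quasi-likelihood F test, R 4.3.3) and p-values adjusted by Benjamini-Hochberg at 0.05. The 2 Spo11/Spo11 libraries were set against both break-competent libraries together (2 residual degrees of freedom), and in a fit of 3 groups against each alone (1 residual degree of freedom). In those single-library fits the lone library is assumed to vary like the Spo11/Spo11 pair. Separate animals are not stated for any group, so the p-values reflect only spread between libraries, which may be technical. CPM were scaled to TMM-adjusted library totals. Alternatives were RLE factors, other scalings and filters, DESeq2 1.42.0 and leave-outs. On simulated counts with known changes the 2-group fit recovered 98% of regions changed 4-fold and 25% of those changed 2-fold; against Spo11/+ alone 93% and 16%, and against Hells wt alone 85% and 7%. The simulation gave both break-competent libraries the same mean CPM in each region and all regions 1 dispersion (0.0306). Only regions over 1 CPM were changed. The real break-competent pair differed by a median log2 of 0.77 at hotspots, so these rates do not carry over to the joint comparison. Regions, classes, gene lists and named genes were chosen with earlier results of these data known. Named regions were those with the lowest p per class in each comparison, where none passed those with the lowest unadjusted p, plus 12 fixed promoters and every listed promoter that passed. One promoter that this rule names is not reported here. Promoters were within 1000 bp of a protein-coding transcript start (GENCODE M21); sequences came from RefSeq GRCm38.p6.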

Additional observations from a re-analysis of the deposited data

How the results depend on the processing

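Median log2 fold changes of region classes kept their sign in most settings, while the number of called regions varied widely. Relative to the median of all regions, the hotspot median was −0.28 against Spo11/+ and 0.51 against Hells wt. A scaling shifts all regions of a library alike, so these relative values could hardly differ between the 5 scalings. Their constancy is therefore no evidence of stability. The median of all regions moved by over 0.1 only against Hells wt, to −0.12 with TMM from promoters and 0.17 with TMM from the remaining regions (those that are neither promoter nor DMC1 site). In the joint comparison, where 0 regions were called, DESeq2 called 5 higher and 110 lower, the library-number prefix as a block 11 and 291, and a fit of 3 groups 832 and 618. Leaving out 1 library gave 4 to 9156 higher and 32 to 5410 lower. Against Spo11/+ (18 higher, 78 lower), RLE factors gave 28 and 158, library size alone 62 and 317, TMM from promoters 48 and 686, and DESeq2 6 and 1. TMM from the remaining regions gave 250 lower, and the fit of all 7 libraries 0 and 0. Against Hells wt (9321 higher, 5272 lower), TMM from promoters gave 9359 lower, TMM from the remaining regions 18263 and 2943, DESeq2 2020 and 91, and all 7 libraries 0 and 0. A fit without 1 Spo11/Spo11 library could be made for the single-library comparisons only with the Hells CKO libraries in it, so both changed at once. Those fits gave 0 to 2 higher and 0 lower against Spo11/+, and 0 to 1 higher and 46 to 161 lower against Hells wt. H3K9ac calls ranged over 0 to 21202 higher and 0 to 11639 lower without 1 C57BL/6J library.

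Class medians moved as follows. In the joint comparison, hotspots had 0.02, promoters 0.09 and X promoters 0.15. Without 1 library hotspots ran from −0.28 to 0.50, X hotspots from −0.30 to 0.62 and X promoters from 0.044 to 0.26. Promoters had 0.052 with library size alone, 0.0066 with TMM from promoters and 0.16 with TMM from the remaining regions, and X promoters 0.066 with TMM from promoters. Against Spo11/+, TMM from promoters gave −0.34 at hotspots, 0.0022 at promoters and −0.023 at other regions. Other regions had 0.015 with library size alone, 0.0090 with TMM from the remaining regions and 0.0088 with all 7 libraries. Without 1 Spo11/Spo11 library hotspots ran from −0.34 to −0.26 and other regions from −0.018 to 0.023. Against Hells wt hotspots had 0.44 with library size alone, 0.39 with TMM from promoters and 0.68 with TMM from the remaining regions. Promoters had 0.062, 0.0085 and 0.30 under these 3 settings, and other regions −0.24, −0.30 and −0.0018, with −0.20 for all 7 libraries. Without 1 Spo11/Spo11 library hotspots ran from 0.44 to 0.52 and other regions from −0.22 to −0.19. The cause of these changes was not tested. Joint medians near 0 changed sign: hotspots went to −0.055 with TMM from promoters and −0.012 with unscaled library sizes, X hotspots to −0.029 and CKO-only DMC1 sites to −0.039 with TMM from promoters, and HELLS regions (−0.032) to 0.042 with TMM from the remaining regions. Without Hells wt CKO-only DMC1 sites had −0.040, HELLS regions 0.054 and other regions 0.036. Leaving out the 9 regions at the start of chromosome 9, an alternative chosen after seeing the data, gave 17 higher and 78 lower against Spo11/+ and 9302 and 5254 against Hells wt. Beyond the block on the library-number prefix, no paired analysis was possible because each single-library comparison holds 1 break-competent library.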
